A study of Dicentrarchus labrax with 30 samples.

Results

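Levels of the clock output genes PER1B, TEFA, HLF and KIAA1737 were followed across 3 tissues of bold and shy European sea bass (Dicentrarchus labrax). Every row of the count table with 1 of these symbols was taken, and each identifier was kept apart, which gave 8 identifiers of 26719 in all. PER1B had 1 identifier (DLAgn_00143830), TEFA had 2 (DLAgn_00098990 and DLAgn_00187840), HLF had 4 (DLAgn_00059510, DLAgn_00106080, DLAgn_00194210 and DLAgn_00196960) and KIAA1737 had 1 (DLAgn_00067880). All 8 had enough counts to be tested in pituitary, brain and head kidney, although counts in head kidney were as low as 3 for HLF DLAgn_00106080. The genes were selected on their bold minus shy log2 fold changes in pituitary and head kidney, so those values are given as a description with no test. The tests that follow concern the brain, sex, the interaction of behavior with sex, and the tissues.

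In the circadian clock, the activators CLOCK and ARNTL switch on genes that carry E-boxes, among them the PER and CRY genes, and PER and CRY proteins then repress the activators. Output passes in part through the PAR bZIP factors TEF, HLF and DBP, which activate genes through D-boxes, while the repressor NFIL3 competes for the same sites. CIPC, for which KIAA1737 is the older symbol, binds CLOCK and inhibits it, as known from mammals. PER1 is also induced directly by glucocorticoid hormones in mammals, apart from its daily rhythm. In zebrafish, clocks run in most tissues and many respond to light directly.

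Bold fish were those that left a shelter soon after a test began, and shy fish those that left very late or stayed inside, over repeated tests of risk taking. All fish shared 1 rearing schedule and were sampled at 478 days post fertilization, and no label gives a genotype or a drug. From 10 fish came 30 libraries, 10 per tissue, and within each tissue 5 libraries came from shy fish (3 females, 2 males) and 5 from bold fish (2 females, 3 males). The labels do not tie libraries of different tissues to a fish, and replicate numbers only name libraries. No source used here states the hour of sampling, and whether bold and shy fish were sampled at the same hour could not be checked.

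Pituitary libraries held 3808645 to 12550808 counts, brain libraries 7916478 to 20067656 and head kidney libraries 4667992 to 26837997. Tissue labels were checked by markers. The pituitary hormone subunit gene TSHB (DLAgn_00096090) averaged 2435 CPM (counts scaled to library size, here over all 30 libraries) in pituitary and 0.0846 in brain. The synaptic gene SNAP25 (DLAgn_00066930) averaged 42.1 in pituitary, 1128 in brain and 0.225 in head kidney. The other SNAP25 identifiers were scarcer and higher in pituitary than in brain, DLAgn_00254710 at 30.66 against 3.383 and DLAgn_00066940 at 4.356 against 3.592. The globin gene HBAA1 (DLAgn_00266680) averaged 259300 in head kidney. A set of 4 libraries, all shy, stood apart from their tissue. Pituitary shy 1 and 2, the 2 shy males, had ribosomal protein shares of 1.86% to 3%, against 3.96% to 5.48% in the other 8 pituitary libraries. Brain shy 4 had a share of 0.0159% and a median Spearman correlation of 0.731 with the other brain libraries, and brain shy 1 had 2.8% and 0.925, against 1.64% to 2.07% and at least 0.98 in the other 8. For bold minus shy in pituitary and brain, values without these libraries are given beside those of the fits that hold them where the value moved by much. In pituitary no shy male is then left. With sex as a covariate, the log2 fold change there compares 2 bold females with 3 shy females, which is a narrower contrast. Counts of identifiers whose groups do not overlap still use all bold libraries.

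KIAA1737 had the highest bold minus shy fold change of the 8 identifiers in pituitary and in head kidney. In pituitary its level, in CPM scaled within the tissue, was 23.8, 22.8, 17.0, 15.1 and 15.1 in shy libraries 1 to 5. In the bold pituitary libraries it was 76.5, 48.3, 78.8, 31.4 and 64.8. Every bold library lay above every shy one, and the means were 18.8 ± 4.20 and 60.0 ± 20.0 CPM (SD, n = 5 each). The bold minus shy log2 fold change was 1.62 (SE 0.23), and 1.79 without pituitary shy 1 and 2.

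In head kidney KIAA1737 stood at 12.4, 9.77, 19.5, 12.8 and 12.1 CPM in the shy libraries. The bold head kidney libraries held 76.2, 41.7, 72.9, 23.1 and 54.0 CPM. The groups again did not overlap, but bold library 4 was close to the highest shy library, number 3. The log2 fold change was 2.03 (SE 0.34) and ranged from 1.70 to 2.37 when single libraries were left out.

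In brain KIAA1737 did not separate the groups. Its CPM was 25.2, 24.8, 45.1, 92.6 and 23.2 in shy brain libraries 1 to 5 and 30.1, 35.8, 46.2, 38.8 and 31.7 in the bold ones. The highest value was in shy library 4, which stands apart, and bold library 3 and shy library 3 came next, so the groups overlapped. The log2 fold change was -0.021 (SE 0.42, adjusted p = 0.993, edgeR quasi-likelihood test), and 0.24 without brain shy 1 and 4.

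**Figure D1:**
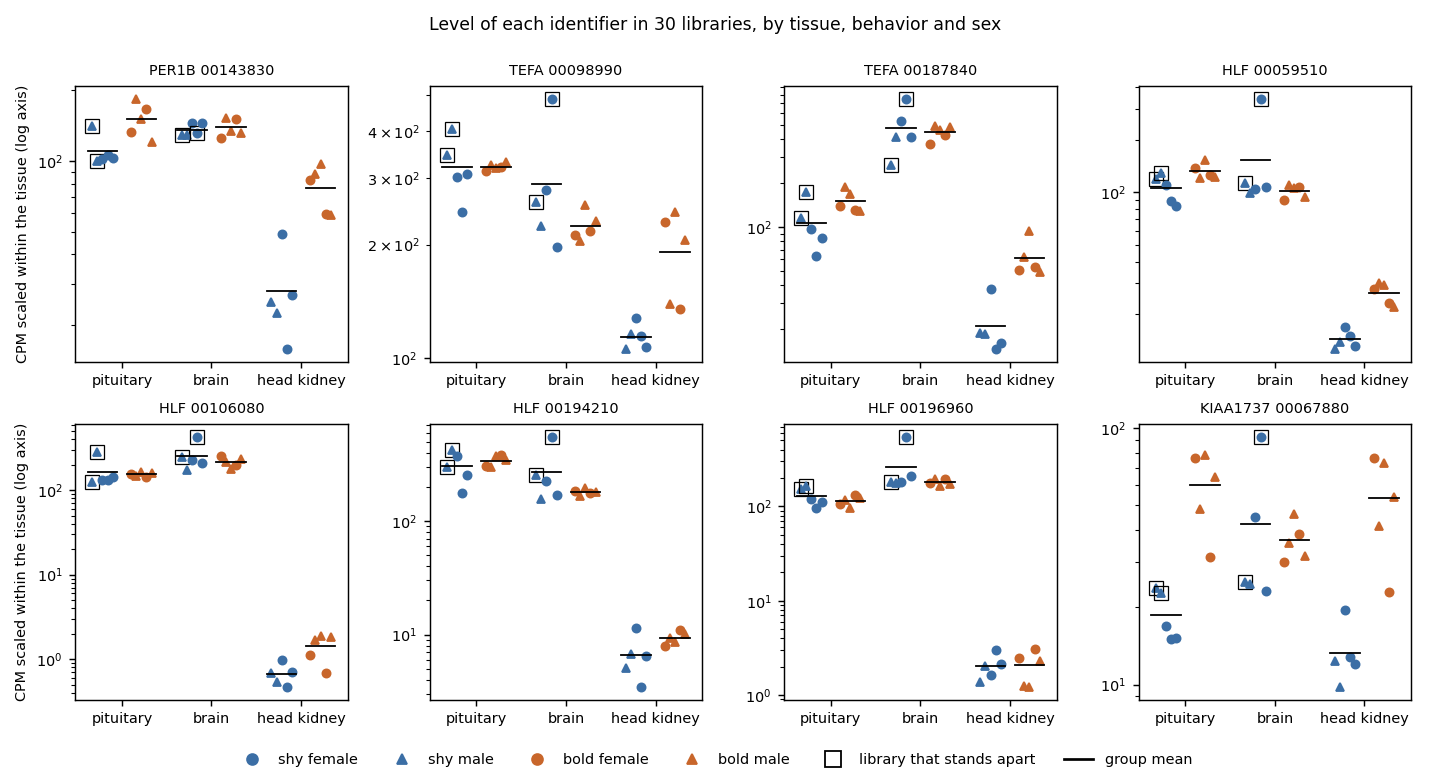
Level of each identifier in every library, in CPM scaled within the tissue on a log axis, for shy (blue) and bold (orange) females (circles) and males (triangles); lines are group means and squares mark the 4 libraries that stand apart. In head kidney all bold points of PER1B, both TEFA identifiers, HLF DLAgn_00059510 and KIAA1737 lie above all shy points, in pituitary this holds for KIAA1737 alone, and in brain for no identifier. Of all genes tested, 1.41% lay so in head kidney, 1.11% in pituitary and 0.52% in brain. The genes were chosen on this contrast in pituitary and head kidney, so nothing is read from the counts there.

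PER1B, the period gene, separated the groups in head kidney. Its CPM there was 25.2, 22.5, 49.0, 15.8 and 27.0 in shy libraries 1 to 5. The bold libraries held 83.0, 87.5, 96.4, 59.2 and 58.6 CPM. The lowest bold library stood above the highest shy one, and the log2 fold change was 1.49 (SE 0.30).

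In pituitary, PER1B measured 140.2, 99.7, 101.7, 105.7 and 102.7 CPM in the shy libraries and 132.7, 183.5, 150.9, 166.3 and 119.6 CPM in the bold ones. Shy library 1, which stands apart, overlapped the bold range, and the other 4 shy libraries lay below it. The log2 fold change was 0.43 (SE 0.15), and 0.53 without shy 1 and 2. In brain PER1B was the steadiest of the 8, at 128.6 to 145.1 CPM in shy and 125.1 to 152.6 CPM in bold libraries, brain shy 4 included at 130.7. Its log2 fold change in brain was 0.045 (SE 0.14, adjusted p = 0.951, edgeR).

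The 2 TEFA identifiers, which encode PAR bZIP activators of D-box genes, both separated the groups in head kidney. TEFA DLAgn_00187840 measured 18.8, 18.6, 37.5, 14.6 and 16.1 CPM in shy and 50.5, 61.9, 93.1, 53.2 and 49.1 CPM in bold head kidney libraries. Its log2 fold change was 1.52 (SE 0.30). TEFA DLAgn_00098990 measured 105.4, 115.8, 127.5, 114.2 and 106.6 CPM in shy and 230.2, 139.4, 244.0, 134.9 and 205.6 CPM in bold head kidney libraries, a log2 fold change of 0.74 (SE 0.18). The shy libraries of the latter were close together and the bold ones spread from just above them upward.

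In pituitary the TEFA pair differed. TEFA DLAgn_00187840 ran from 63.5 to 174.4 CPM in shy and from 129 to 188 CPM in bold libraries, with a log2 fold change of 0.44 (SE 0.18), or 0.72 without shy 1 and 2. TEFA DLAgn_00098990 averaged 321 ± 59.4 CPM in shy and 323 ± 7.13 CPM in bold libraries (SD, n = 5 each), a log2 fold change of -0.023 (SE 0.12). All 5 bold pituitary libraries of DLAgn_00098990 lay within 313 to 332 CPM. In brain the log2 fold changes were -0.0073 (SE 0.29, adjusted p = 0.997, edgeR) for DLAgn_00187840 and -0.33 (SE 0.27, adjusted p = 0.888, edgeR) for DLAgn_00098990. The brain value of DLAgn_00098990 ran from -0.43 to -0.11 with 1 library left out and reached -0.070 over all alternatives. Brain shy 4 held 489 CPM of it, against 197 to 280 CPM in the other shy brain libraries.

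The 4 HLF identifiers, members of the same PAR bZIP family, did not behave alike. In head kidney HLF DLAgn_00059510 measured 12.6, 13.9, 16.9, 15.1 and 13.2 CPM in shy and 27.9, 30.1, 29.3, 23.1 and 22.1 CPM in bold libraries. Both groups were tight and did not overlap, and the log2 fold change was 0.89 (SE 0.13). The other HLF identifiers were scarce in head kidney and overlapped between groups. HLF DLAgn_00106080 had 3 to 38 counts per library there and a log2 fold change of 0.91 (SE 0.38). HLF DLAgn_00194210 had 22 to 212 counts and 0.55 (SE 0.28), and HLF DLAgn_00196960 had 6 to 98 counts and 0.094 (SE 0.30). Leaving out head kidney shy 3 or bold 4 added 1 HLF identifier to those whose groups do not overlap.

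In pituitary the HLF log2 fold changes were 0.29 (SE 0.13) for DLAgn_00059510, 0.14 (SE 0.20) for DLAgn_00194210, -0.12 (SE 0.19) for DLAgn_00106080 and -0.19 (SE 0.15) for DLAgn_00196960. Without pituitary shy 1 and 2 they were 0.47, 0.36, 0.14 and 0.13. The values of DLAgn_00106080 and DLAgn_00196960 therefore carry the opposite sign without these libraries, where only females are compared. HLF DLAgn_00106080 held 282.8 CPM in pituitary shy 2 and 125 to 143 CPM in the other 4 shy libraries.

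Counted over all 8, bold lay wholly above shy for 1 identifier in pituitary, where 1.11% of the 17102 genes tested did so (2.14% lay apart in either direction), and for 5 identifiers in head kidney, where 1.41% of 15741 genes did (1.6% lay wholly below and 3.01% lay apart in either direction). Without pituitary shy 1 and 2 the pituitary count was 5 (both TEFA identifiers, PER1B, HLF DLAgn_00059510 and KIAA1737), with 2.72% of all genes. The log2 fold change was positive for 5 of 8 in pituitary (51.8% of all genes, median 0.21 against 0.019 for all genes) and for 8 of 8 in head kidney (48% of all genes, median 0.90 against -0.012). Over all genes, 0% passed at an adjusted p under 0.05 in pituitary and 0.00635% in head kidney (edgeR). Under the alternatives the sign changed for 3 identifiers in pituitary and for 1 in head kidney. Because these contrasts chose the genes, nothing is read from the counts. In both tissues a change in the number of cells of a type and a change in RNA per cell cannot be told apart.

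**Figure D2:**
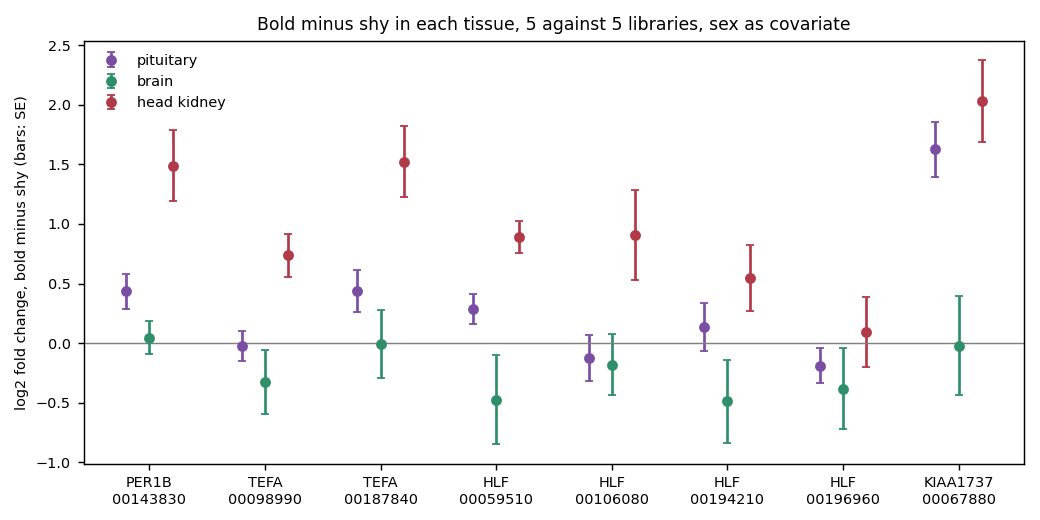
Log2 fold change of bold minus shy fish for each identifier in pituitary, brain and head kidney, with bars for the SE derived from the F statistic of the edgeR fit with sex as a covariate (5 against 5 libraries). KIAA1737 has the highest value in pituitary (1.62) and in head kidney (2.03), and in brain every value lies between -0.49 and 0.045. The genes were chosen on the pituitary and head kidney values.

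Cell type markers in head kidney were summed to set beside these values. Interrenal genes, which mark the steroid-producing cells, summed to 256.6 to 430.9 CPM in shy (median 383) and 180.7 to 684 CPM in bold libraries (median 225), with 5 of 5 identifiers detected in each group. Erythroid genes summed to 97870 to 270900 CPM in shy and 138500 to 190200 CPM in bold libraries, with 1 of 6 erythroid identifiers at 0 in bold libraries. Neutrophil genes summed to 1809 to 4085 CPM and 2389 to 3363 CPM, with 2 of 16 neutrophil identifiers at 0 in each group. Neuron genes summed to at most 4.35 CPM. The bold and shy ranges overlapped for each of these lists, and the part of cell composition in the head kidney values was not tested. In pituitary the TSHB identifiers summed to 1815 to 3405 CPM in shy (median 2126) and 2554 to 3819 CPM in bold libraries (median 3617). These ranges overlap too, although the bold median was higher, and the part of cell composition in the pituitary values was not tested.

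The brain was not used to choose the genes, and there 0 of 8 identifiers passed in bold minus shy, at an adjusted p under 0.05 over 18640 genes (0.00536% of all genes passed). Adjusted p values ran from 0.888 to 0.997 in edgeR's quasi-likelihood test, 0 of 8 had an unadjusted p under 0.05, and DESeq2 also called 0. For no identifier did the groups lie apart in brain (1.01% of all genes did). Of the 8 values 7 were negative (50.7% of all genes were positive), with HLF DLAgn_00194210 at -0.49 (SE 0.35), HLF DLAgn_00059510 at -0.47 (SE 0.38) and HLF DLAgn_00196960 at -0.38 (SE 0.34). Brain shy 4 carried most of their size, since without that library alone they were -0.15, -0.070 and -0.040. HLF DLAgn_00196960, for example, measured 179.6, 177.3, 179.5, 547.7 and 210.3 CPM in shy brain libraries 1 to 5 and 165.1 to 195.8 CPM in bold ones. Without brain shy 1 and 4 the same 3 HLF identifiers had values of 0.018, -0.032 and -0.038, and 0 of 8 identifiers passed.

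Sex was tested in the same fits with behavior held. Of 8 identifiers, 0 passed in male minus female in any tissue in edgeR or in DESeq2, where 0 of all genes passed in edgeR (0% in each tissue). All 8 values were positive in pituitary, with a median of 0.23 against 0.011 for all genes (51.3% positive), and all 8 were negative in brain, with a median of -0.30 against -0.054 (43.6% positive). TEFA DLAgn_00187840 in pituitary had the only unadjusted p under 0.05 (13.5% of all genes had one), at 0.00969 (log2 0.55, SE 0.18, adjusted p = 0.363, edgeR), with 102 ± 31.4 CPM in females and 155 ± 31.1 CPM in males (SD, n = 5 each). The pituitary males include the libraries shy 1 and 2. Without them no shy male is left, and male minus female compares 3 bold males with 2 bold females. HLF DLAgn_00194210 was then at -0.012 and HLF DLAgn_00196960 at -0.083 in pituitary. Whether those signs turn on library quality or on the limit to bold fish cannot be told apart. Without brain shy 1 and 4 both TEFA identifiers and HLF DLAgn_00059510 were above 0 in brain (0.0082 to 0.10), so the shared sign in brain rests on these libraries. None of the 8 had an unadjusted p under 0.05 in brain (0.477% of all genes). In head kidney 3 values were positive and 5 negative, from -0.63 for HLF DLAgn_00196960 to 0.54 for HLF DLAgn_00106080, both with few counts. The difference in the sex effect between tissues, tested over all 30 libraries, passed for 0 of 8 (adjusted p from 0.863 to 0.965, edgeR, 0 of 8 unadjusted), as it did for 0% of all genes.

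Whether the bold minus shy difference itself differed between males and females was tested by the interaction, and 0 of 8 identifiers passed in any tissue in edgeR or in DESeq2. In pituitary 9.58% of all genes passed (7.46% higher, 2.13% lower), and there the 2 shy males are the libraries that stand apart, so that sex within shy fish and library quality cannot be told apart. All 8 interaction values were negative in pituitary (-0.64 to -0.19), and HLF DLAgn_00196960 had the only unadjusted p under 0.05 (0.0162, adjusted p = 0.101, edgeR, where 25.5% of all genes had one). Its 2 shy males averaged 160 CPM and its 3 shy females 109 CPM, against 112 CPM in bold males and 119 CPM in bold females. The value of HLF DLAgn_00106080 turned on 1 library, passing at -1.0 (adjusted p = 0.00806, edgeR) without pituitary shy 1 and standing at 0.21 without pituitary shy 2. In brain all 8 interaction values were positive (0.14 to 1.24, with 55% of all genes positive, 0% passing and 0.408% at an unadjusted p under 0.05; 0.065 to 0.63 without brain shy 1 and 4, and negative for 2 HLF identifiers when 1 library was left out) and in head kidney 7 were (-0.40 to 1.25, 0.0191% of all genes passed).

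KIAA1737 was also set out by sex in the tissues where bold exceeded shy. In pituitary it averaged 15.8 ± 1.07 CPM in 3 shy females, 23.3 ± 0.68 CPM in 2 shy males, 54.0 ± 31.9 CPM in 2 bold females and 64.0 ± 15.3 CPM in 3 bold males (SD). In head kidney the means were 14.8 ± 4.10, 11.1 ± 1.84, 49.6 ± 37.6 and 56.2 ± 15.7 CPM in the same order of groups. These means restate the contrast that chose the gene. The interaction was -0.33 (SE 0.45, adjusted p = 0.692, edgeR) in pituitary and 0.62 (SE 0.67, adjusted p = 0.999, edgeR) in head kidney.

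The tissues were compared in a single edgeR model that took the 30 libraries as if each were its own fish, although 10 fish gave them, and levels in this comparison are CPM scaled over the 30 libraries. HLF showed the steepest tissue pattern, being abundant in pituitary and brain and low in head kidney. HLF DLAgn_00106080 averaged 138 ± 39.2 CPM in pituitary and 193 ± 69.7 CPM in brain, against 1.5 ± 0.81 CPM in head kidney (SD, n = 10 each). Its log2 differences were -6.48 (SE 0.28, adjusted p = 6.47e-19) for head kidney minus pituitary and -6.98 (SE 0.28, adjusted p = 1.46e-19) for head kidney minus brain, both by edgeR.

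The other HLF identifiers were also lower in head kidney, to different extents. HLF DLAgn_00196960 averaged 107 CPM in pituitary, 180.2 in brain and 2.94 in head kidney, and HLF DLAgn_00194210 averaged 281, 185 and 11.4 CPM. HLF DLAgn_00059510 had the mildest difference, at 104, 105 and 29.1 CPM, with a log2 difference of -1.85 (SE 0.24, adjusted p = 3.53e-08, edgeR) for head kidney minus pituitary. Its brain mean includes brain shy 4 at 303.6 CPM, while the other brain libraries ran from 72.3 to 92.5 CPM. Brain shy 4 also held the highest brain level of every other identifier but PER1B, so those brain means are raised as well. All 4 HLF identifiers were lower in head kidney than in either other tissue under every alternative run. The groups of libraries did not overlap for any of them between head kidney and the other tissues. How many of all genes did the same was not counted, so this is not read as a trait of HLF. Of all genes, 43.3% passed as lower in head kidney than in pituitary and 44.7% as lower than in brain.

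TEFA DLAgn_00187840 was highest in brain, at 374 ± 119 CPM, then pituitary, at 112 ± 35.1 CPM, then head kidney, at 59.1 ± 37.1 CPM (SD, n = 10 each). Each step passed, with log2 differences of 1.82 (SE 0.26, adjusted p = 3.94e-07, edgeR) for brain minus pituitary and -1.02 (SE 0.25, adjusted p = 0.000602, edgeR) for head kidney minus pituitary. TEFA DLAgn_00098990 was the flattest of the PAR bZIP identifiers, at 281 ± 33.3 CPM in pituitary, with 209 ± 81.8 in brain and 217 ± 77.3 in head kidney. Its brain minus pituitary value of -0.42 (SE 0.18, adjusted p = 0.0478, edgeR) was at the threshold and did not pass with median of ratios factors, without the filter or in DESeq2, while head kidney minus pituitary was -0.39 (SE 0.18, adjusted p = 0.055, edgeR).

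PER1B averaged 114 ± 26.0 CPM in pituitary and 111 ± 7.86 CPM in brain, neighbours that did not differ beyond their spread (log2 0.0079, SE 0.20, adjusted p = 0.975, edgeR), and 74.7 ± 42.5 CPM in head kidney. Head kidney was lower than pituitary by a log2 difference of -0.72 (SE 0.20, adjusted p = 0.00181, edgeR). Shy head kidney libraries ran from 23.7 to 67.2 CPM on this scale and bold ones from 86.6 to 140. KIAA1737 averaged 34.4 ± 22.5 CPM in pituitary, with 32.3 ± 18.7 in brain and 47.7 ± 36.9 in head kidney, and no pair of tissues passed (adjusted p from 0.265 to 0.677, edgeR).

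**Figure D3:**
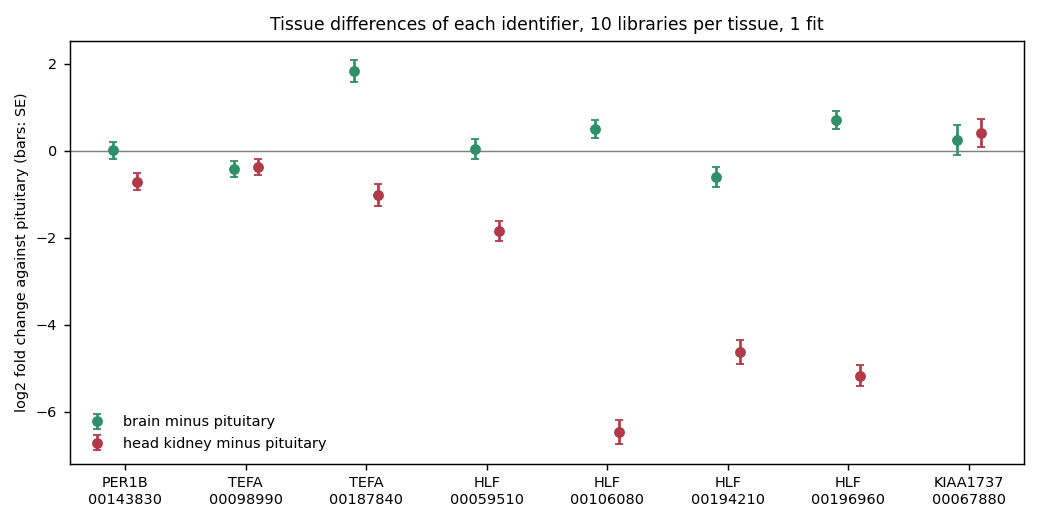
Log2 difference of brain and of head kidney from pituitary for each identifier, with bars for the SE derived from the F statistic of the edgeR fit of 30 libraries. The 4 HLF identifiers fall between -1.85 and -6.48 in head kidney, TEFA DLAgn_00187840 is highest in brain at 1.82, and KIAA1737 has both values within 0.5 of 0.

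In all, 5 of 8 identifiers passed in brain minus pituitary (65.2% of 19108 genes), 6 in head kidney minus pituitary (77.4%) and 6 in head kidney minus brain (82%). Most genes passed these contrasts, and of 41 other clock identifiers tested 26 passed in brain minus pituitary, 37 in head kidney minus pituitary and 37 in head kidney minus brain. In each of the head kidney contrasts, 30 of those 37 were lower in head kidney and 7 higher. A lower level in head kidney was thus shared by most of the clock list. In brain minus pituitary the calls for HLF DLAgn_00194210 (-0.61), HLF DLAgn_00106080 (0.50) and TEFA DLAgn_00098990 depend on the scaling or on single libraries. HLF DLAgn_00059510, at 0.028, did not pass. Under the alternatives it ran from -0.34 to 0.24, and it could pass there with a negative value. The median of all genes in brain minus pituitary was 0.046, 0.12 with median of ratios factors and up to 0.24 when a library was left out. With 1 library left out, TMM took brain shy 4 as its reference library in 21 of 30 fits in place of pituitary shy 4, and over all fits with 1 library left out HLF DLAgn_00194210 ran from -0.90 to -0.40. TEFA DLAgn_00187840 (1.62 to 2.1) and HLF DLAgn_00196960 (0.46 to 0.92) passed in every alternative.

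The rest of the clock was examined through 43 identifiers of activators, repressors, nuclear receptors, NFIL3 factors, and kinases and ligases, of which 39 were tested in pituitary, 40 in brain and 35 in head kidney. In bold minus shy, 0 passed in any tissue in edgeR, with 7, 0 and 4 at an unadjusted p under 0.05 (18.0%, 1.36% and 11.2% of all genes). DESeq2 called 2 in pituitary, 0 in brain and 1 in head kidney, where it called 689, 2 and 122 of all genes. Without the libraries that stand apart edgeR called 0 in pituitary, where that contrast compares bold and shy females only, and 0 in brain. The medians were -0.033, -0.091 and 0.060, near those of all genes (0.019, 0.0067 and -0.012).

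Among repressors of the activators, PER2 DLAgn_00029290 had a log2 fold change of 0.85 (SE 0.33) in pituitary, or 0.31 without shy 1 and 2. In brain it had 0.82, or 0.20 without brain shy 1 and 4. In head kidney it had 1.40 (SE 0.46, adjusted p = 0.349, edgeR), with all bold libraries above all shy ones (1.41% of all genes). Head kidney bold 2 and shy 3 were almost level, at 0.454 and 0.4499 in log2 CPM against the head kidney mean, and shy 1 was lowest at -2.53. The other PER2 identifier, DLAgn_00005810, was at -0.63 (SE 0.19) in pituitary, with all bold libraries below all shy ones (1.03% of all genes), or -0.54 without shy 1 and 2, and at -0.077 (SE 0.47) in head kidney. The period genes thus held values on both sides of 0 within pituitary.

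Among nuclear receptors, which repress (NR1D) or activate (ROR) ARNTL, NR1D2 DLAgn_00056300 had 0.82 (SE 0.16, adjusted p = 0.229, edgeR) in pituitary, or 0.62 without shy 1 and 2, and 1.05 (SE 0.21, adjusted p = 0.208, edgeR) in head kidney. It was the only clock gene outside the 8 that DESeq2 called in both tissues (adjusted p = 0.00345 and 0.000566), and it passed in edgeR in pituitary without bold library 4 (0.98, adjusted p = 0.0448). The other NR1D2 identifiers were at -0.39 (DLAgn_00092210) and 0.042 (DLAgn_00197990) in pituitary, or 0.41 and 0.14 without shy 1 and 2. RORA DLAgn_00162930 was at 0.91 (SE 0.51) in brain, with bold above shy throughout (0.52% of all genes), while RORA DLAgn_00168170 was at -0.53 and RORA DLAgn_00060480 at -0.60. For RORA DLAgn_00162930 brain bold 4 and brain shy 3 were almost level, at 0.3048 and 0.3046 in log2 CPM against the brain mean. Without brain shy 1 and 4 the 3 RORA values were 0.36, -0.049 and 0.022. PRKAA2 (DLAgn_00152080), a catalytic subunit of AMP-activated kinase, which marks CRY for degradation in mammals, had -0.54 (SE 0.14) in pituitary, or -0.23 without shy 1 and 2, and passed in DESeq2 there with all libraries (adjusted p = 0.039).

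NFIL3-3 (DLAgn_00177290), of the family that opposes TEF and HLF at D-boxes, had 0.53 (SE 0.15) in head kidney with bold above shy throughout, and 0.95 (SE 0.60) in brain, or 0.64 without brain shy 1 and 4. NFIL3 DLAgn_00080230 was at -0.36 (SE 0.17) in head kidney. Of the activators, ARNTL2 DLAgn_00206390 was at -0.61 in pituitary, -0.68 in brain and -0.22 in head kidney, with none passing. Without the libraries that stand apart it was at -0.44 in pituitary and at 0.16 in brain, so its sign in brain rests on them. FBXL21 (DLAgn_00110190), a ubiquitin ligase subunit for CRY, had 1.67 (SE 0.86) in pituitary and 0.21 without shy 1 and 2.

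**Figure D4:**
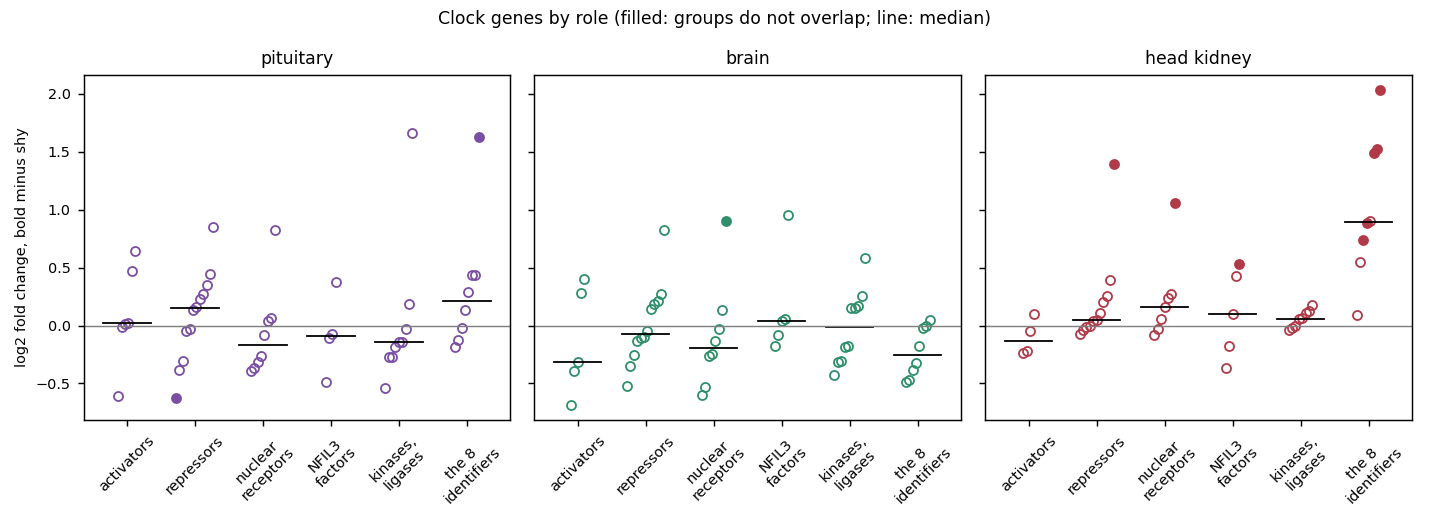
Log2 fold change of bold minus shy for the clock genes by role and for the 8 identifiers, per tissue; filled points are genes whose bold and shy libraries do not overlap and lines are medians. In head kidney the 8 identifiers, which were chosen on this contrast, have a median of 0.90, with 5 filled. The 35 other clock genes tested there have a median of 0.060, with PER2 DLAgn_00029290, NR1D2 DLAgn_00056300 and NFIL3-3 filled. Of all genes tested in head kidney, 3.01% did not overlap. Because of the choice, nothing is read from the difference between the 8 and the others.

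In the pituitary interaction of behavior and sex, 6 of the 39 clock identifiers tested outside the 8 passed, 1 higher and 5 lower. Of all genes 9.58% passed, 7.46% higher and 2.13% lower. FBXL21 was higher, and the nuclear receptors NR1D2 DLAgn_00092210 (-1.62, adjusted p = 0.00726, edgeR) and NR1D1 DLAgn_00130730 (-1.52, adjusted p = 0.0334, edgeR) and the repressors CRY2, BHLHE41 and BHLHE40 DLAgn_00092350 were lower. These rest on the 2 shy males that stand apart, and without them the interaction could not be fitted.

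How the 8 moved together was described within groups, which does not use the bold minus shy contrast. Each library's log2 CPM was set against the mean of its tissue and behavior group, and Spearman's rho was taken over the 30 libraries. These share fish across tissues and include the 4 libraries that stand apart. Of 28 pairs, 24 had a positive rho, with a median of 0.34 and a range from -0.28 to 0.72. The median rho of an identifier with all genes lay between -0.0069 and 0.028. Without the 4 libraries 22 pairs were positive and the median was 0.19. In pituitary alone the median was 0.37, or 0.083 without them. When centred on sex as well, 20 pairs were positive with a median of 0.33. With Pearson's r 27 were, with a median of 0.55. The highest pairs were TEFA DLAgn_00098990 with KIAA1737 at 0.72 (0.66 without the 4 libraries) and HLF DLAgn_00059510 with KIAA1737 at 0.65 (0.50).

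PER1B had its highest rho with TEFA DLAgn_00187840, at 0.49 (0.52 without the 4 libraries, 0.27 when centred on sex as well). In head kidney alone its rho was 0.77 both with TEFA DLAgn_00187840 and with HLF DLAgn_00059510. Head kidney shy 3 held the highest shy level there of PER1B, of both TEFA identifiers, of KIAA1737 and of every HLF identifier but DLAgn_00196960. HLF DLAgn_00196960, with 6 to 98 counts per library, had negative rho in head kidney with PER1B (-0.70), TEFA DLAgn_00187840 (-0.76) and HLF DLAgn_00106080 (-0.73). In brain the same pairs were at 0.22, 0.39 and 0.56, and without brain shy 1 and 4 at 0.60, -0.095 and 0.33.

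Over the 13789 genes tested in all 3 tissues, the genes with a symbol most like KIAA1737 within groups were MKNK2 (rho 0.86), FKBP5 (0.84) and KLF13 (0.83). MKNK2 is a kinase of the translation factor eIF4E, FKBP5 is a co-chaperone of the glucocorticoid receptor and KLF13 is a zinc finger transcription factor. PTPN2 (0.67), DNM1 (0.66) and PIM1 (0.66) were most like PER1B. EPAS1B (0.83), SSBP4 (0.79) and AKT2 (0.78) were most like TEFA DLAgn_00098990, and EDC3 (0.76), TP53INP2 (0.73) and SLC43A2 (0.72) were most like TEFA DLAgn_00187840. Without the 4 libraries that stand apart MKNK2 was at 0.78, below FKBP5 at 0.85, AKT2 was at 0.55 and SLC43A2 at 0.48. The 3 genes named for PER1B were then higher, at 0.82, 0.71 and 0.68.

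For the HLF identifiers the most alike genes were TRAPPC6B (0.89), SPC25 (0.86) and SLC16A10 (0.81) for DLAgn_00059510 and PDE4D (0.75), ADD1 (0.75) and FOXK2 (0.71) for DLAgn_00106080. NFIX (0.81), C1ORF159 (0.79) and ENPP5 (0.78) were nearest to DLAgn_00194210, and ERGIC3 (0.87), DLL4 (0.81) and VANGL2 (0.78) to DLAgn_00196960. Without the 4 libraries each of these HLF values was lower, between 0.525 (ADD1) and 0.751 (VANGL2), with TRAPPC6B at 0.66 and ERGIC3 at 0.66. No gene appeared in the lists of 2 identifiers.

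FKBP5 (DLAgn_00221360) was compared with each of the 8 as a reference gene for glucocorticoid action. In pituitary it held 41.8, 44.3, 153.9, 22.8 and 31.6 CPM in shy libraries 1 to 5 and 440.4, 236, 628, 159.4 and 440.2 CPM in bold ones. In head kidney it held 25.4, 15.4, 137, 24.9 and 36.2 CPM in shy and 420, 205, 665, 114 and 391 CPM in bold libraries. The groups did not overlap in pituitary and overlapped in head kidney through shy 3 and bold 4, and the brain ranges of 25.4 to 215 CPM and 38.4 to 141 CPM overlapped widely.

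Within groups, KIAA1737 and FKBP5 had a rho of 0.77 in pituitary, 0.89 in brain and 0.92 in head kidney, 10 libraries each. Over all 30 libraries rho was 0.84 and Pearson's r 0.81, and rho was 0.89 without the 2 libraries farthest from the FKBP5 median and 0.85 without the 4 that stand apart. FKBP5 ranked 2 of 13788 genes for KIAA1737, 88 for TEFA DLAgn_00098990 (rho 0.64), 617 for TEFA DLAgn_00187840 (0.45) and 3756 for PER1B (0.12). The rank for the HLF identifiers lay between 1347 and 7409. For PER1B the tissues differed in sign, with -0.46 in pituitary, -0.042 in brain and 0.59 in head kidney.

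**Figure D5:**
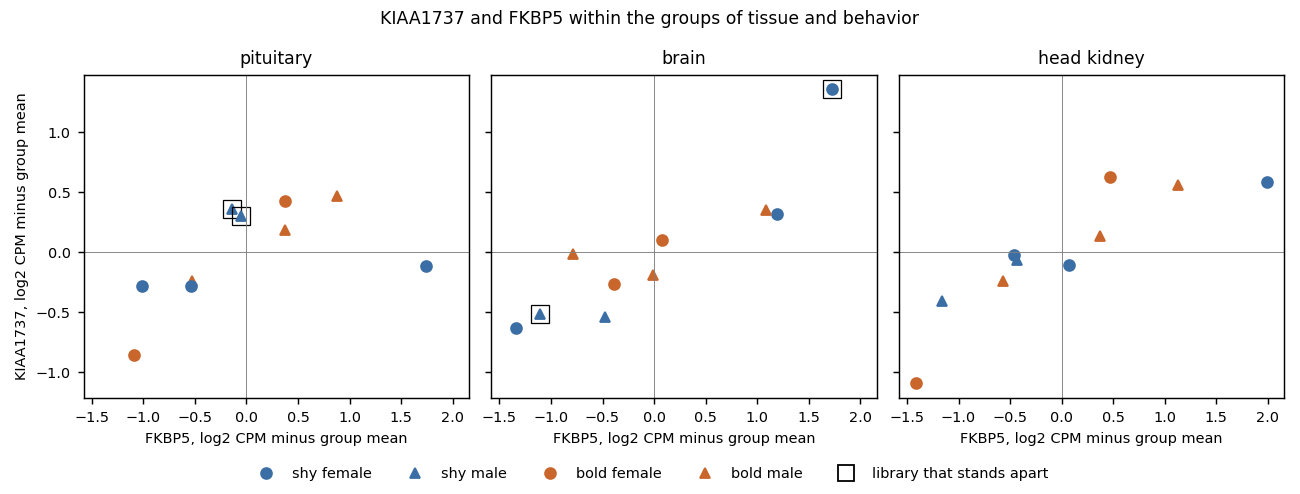
KIAA1737 against FKBP5, each as log2 CPM minus the mean of its tissue and behavior group, for the 10 libraries of each tissue; colors give behavior, shapes sex, and squares the libraries that stand apart. Libraries high in FKBP5 tend to be high in KIAA1737 in all 3 tissues (rho 0.77, 0.89 and 0.92), and pituitary shy 3, at the far right, is high in FKBP5 without being high in KIAA1737.

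Against the clock list, pairs chosen after their values were seen were as follows. The lowest within-group rho of KIAA1737 were with TIMELESS (DLAgn_00092030) at -0.67 (-0.52 without the 4 libraries) and PER3 (DLAgn_00091430) at -0.57 (-0.32). The highest apart from FKBP5 was PRKAA2 at 0.61 (0.28), followed by NR1D2 DLAgn_00056300 at 0.55 (0.65). TEFA DLAgn_00098990 was nearest to BHLHE41 (DLAgn_00166470), a repressor of CLOCK and ARNTL activity, at 0.71 (0.59). PER1B was nearest to CRY1A (DLAgn_00165610) at 0.44 (0.46) and had its lowest values with NFIL3-6 (DLAgn_00188090) at -0.40 (-0.50) and ARNTL2 DLAgn_00166560 at -0.40 (-0.41).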

How the data were processed

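Libraries of pituitary, brain and head kidney RNA were prepared with a stranded mRNA kit, and 50 nt were sequenced from 1 end, over 3 lanes, per the labels' protocols. TopHat2 2.1.1 with Bowtie2 2.2.9 and featureCounts 1.6.2, along with SAMtools 1.5, FastQC and bcl2fastq 2.20, stand in the submitters' processing notes, which give no build, and no source used here states how strand was handled. The deposited values are the authors' raw counts per gene, not normalized. Of 26719 identifiers, 0 matched the reference gene table, so symbols are those of the count table, no positions or sequences are given, and reads of near-identical copies could be split between identifiers.

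Genes with enough counts (filterByExpr, minimum count 10) were fitted in edgeR 4.0.16 (R 4.3.3; TMM factors, robust quasi-likelihood F test, two-sided) per tissue with behavior and sex, with their interaction in a further fit, and over all 30 libraries for the tissues. P values were adjusted by Benjamini-Hochberg over all genes tested, with 0.05 as the threshold for passing. The edgeR test gives no SE. The SE printed is the absolute log2 fold change divided by the square root of its F statistic. CPM uses TMM factors within a tissue unless the 30-library scale is named; log2 CPM adds a prior count of 2. P values assume that each library of a tissue is 1 fish. No pair of libraries was identical. Counting error is large for identifiers with under about 10 counts per library, such as HLF DLAgn_00106080 in head kidney.

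Named are all 8 identifiers, clock genes that passed a behavior or interaction test (those passing between tissues are only counted), the 3 highest and the 3 lowest clock genes per tissue in bold minus shy, the 3 most alike genes per identifier, and FKBP5. Members, lists and the libraries that stand apart were chosen with earlier results of these data known. Alternatives were median of ratios factors, no filter, DESeq2 1.42.0, no covariate, leaving out each library or the 4 that stand apart, Pearson's r and centring by sex. The fits were also run on simulated counts with known changes, the same dispersion for every gene and no library that stands apart. That run does not show how the fits behave with such libraries. Plots used Python 3.11.15 and matplotlib 3.10.9.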

Additional observations from a re-analysis of the deposited data

Results flagged for a closer look

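Within a tissue and behavior group of 5 libraries, a library was singled out when its gap to the nearest other exceeded Dixon's 95% limit. This held in 8 of the 48 groups of the 8 identifiers. The limit gives about 1 in 20 for independent groups of normally distributed values. Here the identifiers were read in the same libraries, and the share over all genes was not counted. No excess is therefore read from the count. Of the cases singled out, 5 were brain shy 4, the library with a ribosomal protein share of 0.0159%. Its CPM was 489 for TEFA DLAgn_00098990 (197 to 280 in the other shy brain libraries), 343 for HLF DLAgn_00059510 (99.2 to 113), 430 for HLF DLAgn_00106080 (173 to 247), 551 for HLF DLAgn_00194210 (155 to 251) and 548 for HLF DLAgn_00196960 (177 to 210). The part of RNA quality in these values was not tested.

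Both pituitary cases were libraries that stand apart, with PER1B at 140 CPM in pituitary shy 1 (99.7 to 106 in the others) and HLF DLAgn_00106080 at 283 CPM in pituitary shy 2 (125 to 143). The head kidney case was TEFA DLAgn_00187840 at 37.5 CPM in shy 3 (14.6 to 18.8), a library whose ribosomal protein share of 4.38% lay within the range of the tissue.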

How the results depend on the processing

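No paired analysis was possible because the labels do not say which libraries of different tissues come from the same fish. In pituitary bold minus shy, the identifiers with bold wholly above shy numbered 1, then 5 without the libraries that stand apart and 1 to 3 when single libraries were left out (2 without shy 1, 3 without shy 2). In head kidney they numbered 5 to 6. Other clock genes called in bold minus shy numbered 2 with DESeq2 and 0 to 1 with 1 library left out in pituitary, and 1 with DESeq2 in head kidney. Identifiers called with 1 library left out numbered 0 to 1 in the pituitary interaction and 3 to 5 in brain minus pituitary, also with the TMM reference held at pituitary shy 4, an alternative added after seeing the data. Over all genes, bold minus shy calls were 0 in pituitary, 2 without the filter and 689 with DESeq2, and in head kidney 1 and 122 with DESeq2. With 1 library left out, they ran from 0 to 73 in pituitary and from 0 to 5 in head kidney. The median rho within groups was 0.34, or 0.19 without the libraries that stand apart.

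Changes of sign were as follows, and their causes were not tested. Without the libraries that stand apart, male minus female in pituitary, then a comparison within bold fish only, was -0.012 for HLF DLAgn_00194210 and -0.083 for HLF DLAgn_00196960. In brain under that setting, male minus female was 0.032 for TEFA DLAgn_00098990, 0.10 for TEFA DLAgn_00187840 and 0.0082 for HLF DLAgn_00059510. Bold minus shy in brain was then 0.14 for HLF DLAgn_00106080, 0.018 for HLF DLAgn_00194210 and 0.24 for KIAA1737. Brain minus pituitary was then -0.014 for PER1B, -0.32 for HLF DLAgn_00059510 and -0.17 for KIAA1737. Without the filter, bold minus shy in brain was 0.0041 for TEFA DLAgn_00187840. Without behavior as a covariate, male minus female in head kidney was 0.34 for PER1B, 0.20 for HLF DLAgn_00059510, 0.023 for HLF DLAgn_00194210 and 0.46 for KIAA1737. Head kidney minus brain was -0.12 for TEFA DLAgn_00098990 with median of ratios factors and in DESeq2.

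With 1 library left out, pituitary bold minus shy ran from -0.083 to 0.071 for TEFA DLAgn_00098990 and from -0.26 to 0.22 for HLF DLAgn_00106080. Over all alternatives it reached 0.15 for TEFA DLAgn_00098990 and ran from -0.32 to 0.13 for HLF DLAgn_00196960. Head kidney bold minus shy ran from -0.036 to 0.26 for HLF DLAgn_00196960 with 1 library left out. Pituitary male minus female then ran from -0.0078 to 0.20 for PER1B and from -0.0095 to 0.47 for HLF DLAgn_00106080. The pituitary interaction ran from -0.39 to 0.069 for PER1B, from -1.0 to 0.21 for HLF DLAgn_00106080 and from -0.80 to 0.47 for KIAA1737. Brain bold minus shy ran from -0.24 to 0.16 for TEFA DLAgn_00187840, from -0.31 to 0.016 for HLF DLAgn_00106080 and from -0.20 to 0.32 for KIAA1737. Brain male minus female ran from -0.25 to 0.068 for TEFA DLAgn_00098990, from -0.52 to 0.043 for HLF DLAgn_00059510 and from -0.42 to 0.033 for HLF DLAgn_00194210. The brain interaction ran from -0.043 to 0.64 for HLF DLAgn_00106080 and from -0.032 to 1.03 for HLF DLAgn_00194210. Head kidney male minus female ran from -0.21 to 0.18 for PER1B, -0.12 to 0.16 for TEFA DLAgn_00098990, -0.088 to 0.35 for TEFA DLAgn_00187840, -0.11 to 0.026 for HLF DLAgn_00059510, -0.26 to 0.098 for HLF DLAgn_00194210 and -0.42 to 0.25 for KIAA1737. The head kidney interaction ran from -0.16 to 0.61 for TEFA DLAgn_00098990, -0.30 to 0.55 for HLF DLAgn_00194210 and -0.011 to 1.71 for KIAA1737. Brain minus pituitary ran from -0.042 to 0.24 for PER1B, -0.34 to 0.24 for HLF DLAgn_00059510 and -0.15 to 0.52 for KIAA1737. With the TMM reference held, the upper ends were 0.064, 0.10 and 0.37. Head kidney minus brain ran from -0.12 to 0.22 for TEFA DLAgn_00098990 (from -0.056 with the reference held) and from -0.047 to 0.56 for KIAA1737. Low counts of 3 HLF identifiers limit what could be seen in head kidney.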
